A study of Homo sapiens with 6 samples.

Results

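Expression of genes that encode lysine acetyltransferases, bromodomain readers, histone methyltransferases and demethylases, DNA methylation enzymes and subunits of the BAF remodelling complex was examined in bladder cancer cells treated with quisinostat. A list of 59 gene symbols was matched by name to the gene table. Of these, 42 had a row and 41 were above 0 in all 6 libraries, among 10066 assembled loci of which 9112 were above 0 in all 6. The members measured were 9 of 10 acetyltransferases, 5 of 6 bromodomain readers, 3 of 7 H3K4 methyltransferases, 3 of 4 H3K36 methyltransferases, 1 of 2 H3K9 methyltransferases, all 4 PRC2 subunits, 7 of 11 lysine demethylases, 3 of 6 DNA methylation genes and 7 of 9 BAF subunits. KAT7, BRD9, KMT2C, KMT2D, KMT2E, SETD1B, KDM2B, KDM5A, KDM6A, KDM6B, NSD1, EHMT1, DNMT3A, TET2, TET3, ARID1B and ARID2 had no row under their symbols and were not analysed here.

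Poly(A) RNA was sequenced from RT4, RT112 and SW780 cells, established human bladder cancer lines that all carry a fusion of the receptor tyrosine kinase gene FGFR3 (FGFR3-TACC3 in RT4 and RT112, FGFR3-BAIBP2L1 as labelled in SW780). Each line was treated for 2 days with DMSO or with quisinostat, a pan-HDAC inhibitor, at 50 nM (RT4), 10 nM (RT112) or 25 nM (SW780), so that dose and cell line cannot be told apart. RT4 cells were grown in a different medium (McCoy's 5A) from the other lines (DMEM). There was 1 library per line and treatment, so that a ratio within a line has no replicate check.

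Acetyltransferases place acetyl groups on histone lysines, HDACs remove them, and bromodomain proteins bind the acetylated tails. Histone methyltransferases and demethylases set and erase marks of active chromatin (H3K4, H3K36) or of silenced chromatin (H3K9, H3K27), DNMT enzymes methylate cytosines, and BAF complexes move nucleosomes with ATP. In urothelial tumours many genes of these classes are recurrently mutated.

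Values are FPKM (fragments per transcript length and library size), as the authors computed them. The log2 ratio is log2 of quisinostat FPKM over DMSO FPKM in 1 line. The libraries summed to 237363 to 263856 FPKM, their read depth is unknown, and the median locus of the whole table had a log2 ratio of 0.08 (RT4), 0.06 (RT112) and 0.04 (SW780). All 14 urothelial markers looked for (keratins, uroplakins and others) had a row, 3 of 6 fibroblast markers did, and none of 5 leukocyte or 4 endothelial markers did. A row does not mean expression: KRT5 was at 0.043 FPKM or below in RT4 cells, and UPK3A was at 0 in RT112 cells. The fibroblast marker LUM was at 135 FPKM with DMSO and 133 with quisinostat in RT112 cells. It was at 8.18 and 14.2 in SW780 cells and at 0 and 3.57 in RT4 cells. COL1A1 and COL3A1 were at 6.19 FPKM or below in every library. CDKN1A, a cell cycle inhibitor gene often induced by HDAC inhibitors, had log2 ratios of 0.12, 1.36 and 0.52 in RT4, RT112 and SW780 cells, and the linker histone gene H1F0 had 1.08, 0.45 and -0.04. Of the 5 HDAC inhibitor response genes looked for, 1, 0 and 3 were below 0 in those lines, among them TUBB3 at -1.90 in RT4 cells, and 1 (GSN) was past 0.3 upwards in all 3 lines.

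The members were lower rather than higher after quisinostat in most cases. The median member had a log2 ratio of -0.32 (RT4), -0.14 (RT112) and -0.41 (SW780), and 31, 25 and 36 of the 41 members lay below 0 in that order (75.6%, 61% and 87.8%, beside 46.5%, 46.4% and 47.6% of all loci). The summed FPKM of the members was 687 with DMSO and 481 with quisinostat in RT4 cells, 552 and 517 in RT112 cells, and 548 and 426 in SW780 cells. All 3 lines gave a ratio below 0 for 16 of 41 members (39%, beside 16.6% of all loci). As deposited, no member was above 0 in all 3 lines (0%, beside 22.9% of all loci). With the G+C correction given below, some members were.

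**Figure D1:**
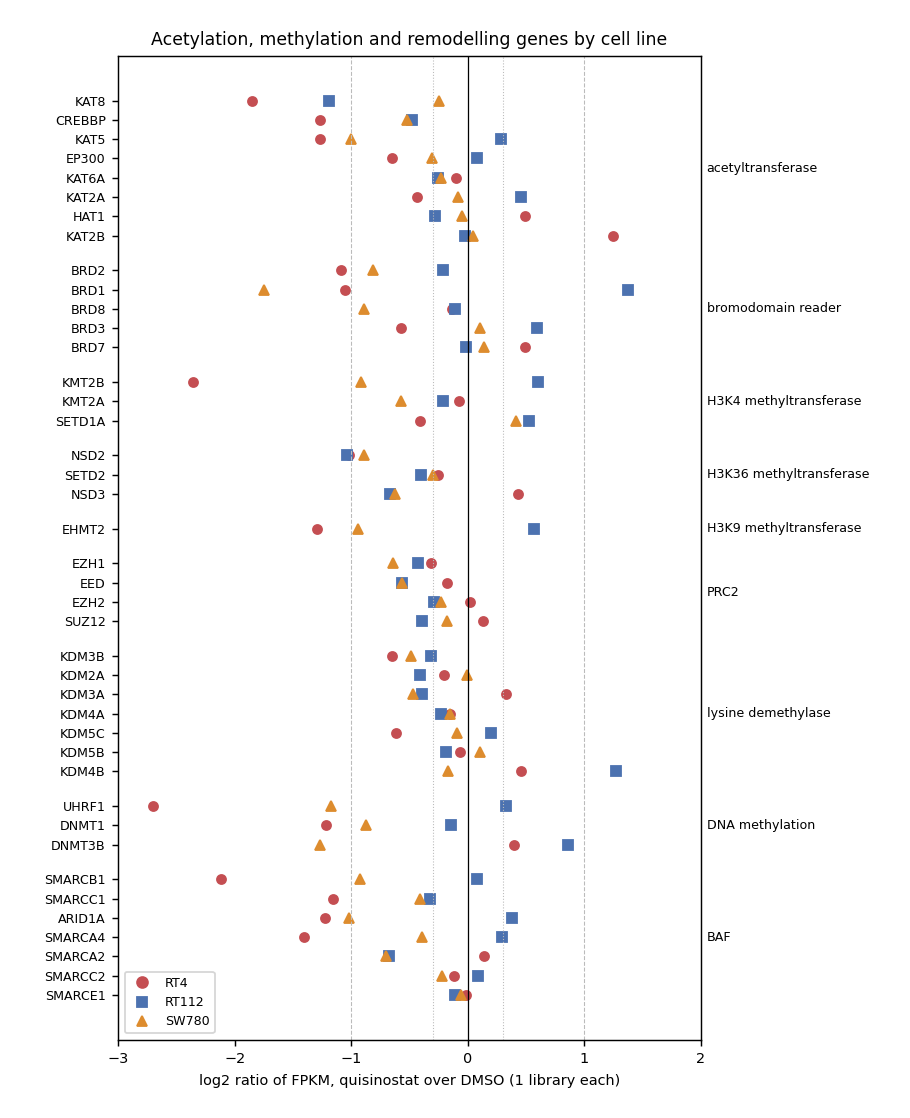
log2 ratio of FPKM (quisinostat over DMSO, horizontal axis) of the 41 members above 0 in all libraries, 1 row per gene grouped by class, with 1 point per cell line (circle RT4, square RT112, triangle SW780); dotted lines stand at 0.3 and dashed lines at 1 in each direction. RT4 points spread the widest, from -2.70 (UHRF1) to 1.24 (KAT2B), and NSD2 has its 3 points close together between -1.03 and -0.89.

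A limit of 0.3 on the log2 ratio in all 3 lines, which the study used for lower genes, was passed downwards by 5 of 41 members (12.2%), NSD2, CREBBP, EZH1, KDM3B and SMARCC1, beside 4.99% of all loci. Upwards it was passed by 0 of 41 members, beside 11.4% of all loci. Among loci averaging at least 5 FPKM, the downward limit was passed by 4 of 31 members and 4.88% of loci, and the upward limit by 0 of 31 members and 8.34% of loci. Pairs of lines shared more members. In both RT4 and SW780 cells 16 of 41 members were lower, beside 17.9% of all loci, in both RT112 and SW780 cells 9 of 41, beside 9.49%, and in both RT4 and RT112 cells 6 of 41, beside 8.18%.

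At 2-fold, 14 of 41 members were lower in RT4 cells (34.1%, beside 14.1% of all loci) and 1 was higher (beside 18%). In RT112 cells 2 members were at least 2-fold lower (beside 3.6% of all loci) and 2 were higher (beside 13.8%). In SW780 cells 4 members were lower (beside 7.35%) and 0 were higher (beside 10.5%). The RT112 and SW780 shares on the lower side lay near those of all loci, and the RT4 share lay above.

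**Figure D2:**
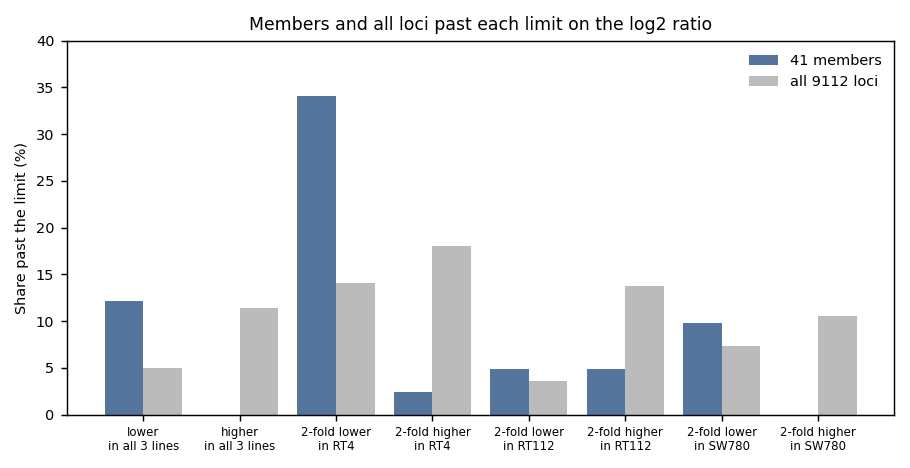
Share in percent (vertical axis, from 0) of the 41 members (blue) and of all 9112 loci (grey) past each limit, at 0.3 in all 3 lines and at 2-fold in each line. Members stand above all loci in the lower direction, most in RT4 cells (34.1% beside 14.1%), and below all loci in each higher direction.

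Across the 3 lines, limma with cell line as a block called 0 of the 9430 loci it tested for treatment (0% at an adjusted p of 0.05), and the lowest adjusted p among members was 0.245. At an unadjusted p of 0.05, limma gave 6 of 41 members as lower (NSD2, BRD2, DNMT1, CREBBP, KAT8 and SMARCC1), beside 4.16% of all loci, and 0 as higher, beside 9.68%. No member's difference therefore passed a test adjusted over all loci. The 3 quisinostat values lay below the 3 DMSO values without overlap for 6 of 41 members (NSD2, CREBBP, EZH1, KDM3B, BRD2 and EED), beside 4.43% of all loci, and above them for 0, beside 6.18%. Proliferation genes moved with the members: 16, 16 and 20 of 20 listed genes were below 0 in RT4, RT112 and SW780 cells, with median log2 ratios of -0.37, -0.29 and -0.80 and a summed FPKM of 912 and 668, 1128 and 960, and 1160 and 676 with DMSO and quisinostat. MKI67 had log2 ratios of -0.35, -0.47 and -1.09, and PCNA -0.39, -0.05 and -0.90. The urothelial markers were below 0 for 10, 3 and 11 of the 13 above 0 in all libraries, with medians of -1.18, 0.58 and -0.82, and their summed FPKM was 1773 and 953, 1581 and 2492, and 1879 and 1058 with DMSO and quisinostat. The part of either list in the members' values was not tested. In bulk RNA, fewer cells that express a gene and less of its RNA per cell cannot be told apart.

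The direction in a line moved with the G+C content of the transcript. G+C content was that of a gene's longest transcript, a coding one where it had one. A locus of several gene names, such as that of NSD2, was given the mean over its names. Over the 41 members, Spearman's rho between log2 ratio and G+C content was -0.72 for RT4, 0.58 for RT112 and -0.31 for SW780, beside -0.49, 0.44 and -0.22 over 8407 loci. The points of a line share a pair of libraries, so that these are descriptions across genes. The 10 members of lowest G+C content (37.0% to 44.8%) had median log2 ratios of 0.14, -0.28 and -0.12, and the 10 of highest content (57.5% to 63.5%) had -1.28, 0.42 and -0.66. After a lowess curve of ratio on G+C content was subtracted in each line, 6 of 41 members were at least 2-fold lower in RT4 cells (KAT8, KMT2B, NSD2, UHRF1, SMARCB1 and SMARCC1), beside 8.16% of loci, and 8 of 41 were lower past 0.3 in all lines, beside 7.73%. The 8 were CREBBP, BRD2, KDM3B, EZH1, EED, NSD2, DNMT1 and SMARCB1, so that SMARCC1 left the group (-0.25 in RT112 cells) and 4 others entered it. The corrected medians of the members were -0.38, -0.17 and -0.44. After the correction, rho over the members was -0.31, 0.01 and -0.03, so that a slope with G+C content remained among them in RT4 cells. The sign of the ratio turned with the correction for 6 of 41 members (RT4), 11 (RT112) and 3 (SW780). Corrected ratios were above 0 in all lines for KDM4B (1.35, 0.60 and 0.09), KAT2A (0.08, 0.08 and 0.04) and BRD7 (0.13, 0.14 and 0.03). None of these was so as deposited, and the share of all loci above 0 after the correction is not given here. The part of G+C content in the members' values was not tested.

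**Figure D3:**
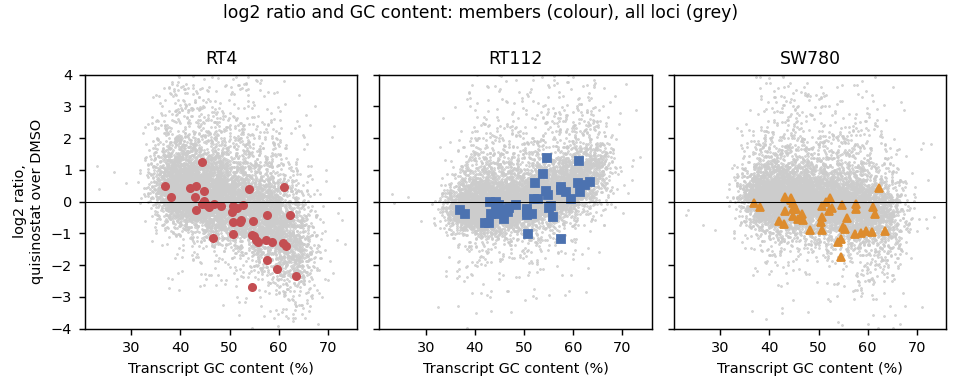
log2 ratio (quisinostat over DMSO, vertical axis, shown from -4 to 4) against transcript G+C content in percent (horizontal axis) in each cell line, for the 41 members with a ratio (colour) and all 8407 loci with a G+C value (grey). The members slope down in RT4 (rho -0.72), up in RT112 (rho 0.58) and slightly down in SW780 cells (rho -0.31).

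NSD2, which dimethylates H3K36, had the 3 most similar ratios of the 5 members lower in all lines. NSD2 was at 13.6 FPKM with DMSO and 6.70 with quisinostat in RT4 cells, 25.4 and 12.4 in RT112 cells, and 15.3 and 8.21 in SW780 cells. Each quisinostat value lay below all 3 DMSO values. The log2 ratios were -1.02, -1.03 and -0.89, and limma gave a log2 fold change of -0.91 (SE 0.19) with an adjusted p of 0.245. The gene lies on chr4:1871424-1982207 (GRCh38, GENCODE 29), and its locus also carries the small RNA gene SCARNA22. The other H3K36 methyltransferases were not lower past 0.3 in all lines. SETD2, which trimethylates H3K36, had log2 ratios of -0.26, -0.40 and -0.30, and NSD3 had 0.44, -0.66 and -0.63.

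CREBBP, a coactivator acetyltransferase closely related to EP300, was at 7.97 FPKM with DMSO and 3.32 with quisinostat in RT4 cells, 8.56 and 6.15 in RT112 cells, and 7.37 and 5.15 in SW780 cells. All 3 quisinostat values lay below all 3 DMSO values. Its locus is shared with TRAP1, a mitochondrial chaperone gene, so that the value is that of both. EZH1, a catalytic subunit of PRC2 that methylates H3K27, was at 5.06 and 4.06 FPKM in RT4, 4.37 and 3.26 in RT112, and 4.76 and 3.05 in SW780 cells with DMSO and quisinostat. Its groups did not overlap either, and the gap between them was small. The RT4 ratio of -0.32 was the weakest.

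KDM3B removes methyl groups from H3K9 and was at 21.9 and 14.0 FPKM in RT4, 19.6 and 15.7 in RT112, and 19.8 and 14.1 in SW780 cells. The DMSO values agreed closely across lines and lay above all 3 quisinostat values. SMARCC1, a core BAF subunit, was at 38.6 and 17.3 FPKM in RT4, 18.0 and 14.4 in RT112, and 15.3 and 11.5 in SW780 cells. Here the groups overlapped, since the RT4 quisinostat value lay above the SW780 DMSO value. The limma log2 fold changes were -0.64 (SE 0.24) for CREBBP, -0.37 (SE 0.23) for EZH1, -0.46 (SE 0.19) for KDM3B and -0.60 (SE 0.23) for SMARCC1, with adjusted p from 0.345 to 0.493.

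**Figure D4:**
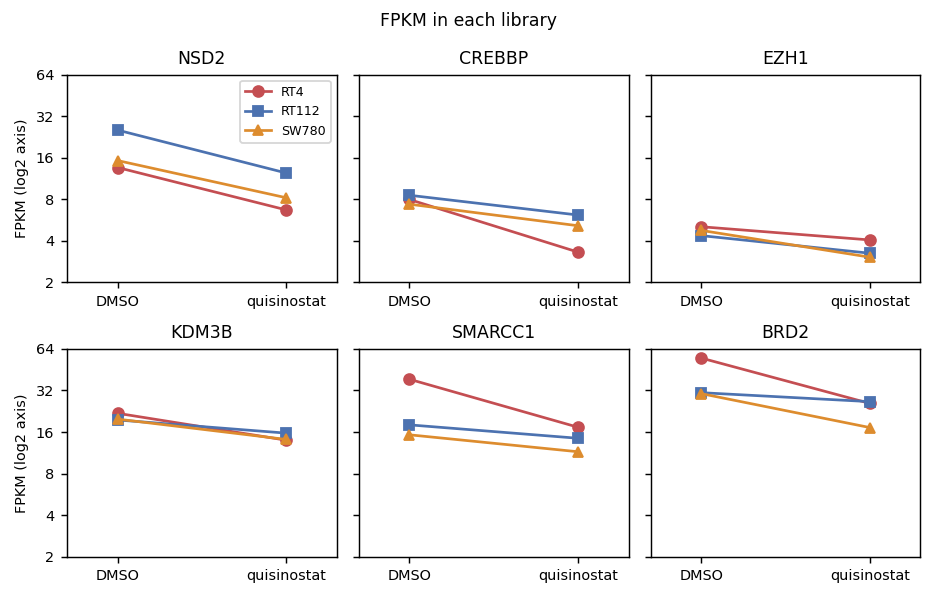
FPKM (vertical axis, log2 scale) with DMSO and with quisinostat in each of the 3 cell lines, 1 library per point, for the 5 members lower in all lines and for BRD2, with lines joining the libraries of a cell line. NSD2 goes from between 13.6 and 25.4 FPKM to between 6.70 and 12.4, and BRD2 is nearly level in RT112 cells (30.8 and 26.5).

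The promoters of 3 of these members are shown as the 250 bases before the transcription start in RefSeq (GRCh38.p14), 5′ to 3′ on the gene's strand, because these genes shared a direction in all lines. Capitals mark 4 motifs found on either strand, and overlapping matches run together. The first is GGGCGG, known as the GC box. The ETS-type core was searched as CCGGAA in the same way. A CCAAT box and a TATA box, written TATAAA, were the others. At CREBBP the more upstream of its starts was used. The KDM3B promoter is not shown, and SMARCC1 had no entry among the RefSeq promoters used. The windows are chr4:1871143-1871392 (plus strand) for NSD2, chr16:3880714-3880963 (minus strand) for CREBBP and chr17:42745041-42745290 (minus strand) for EZH1.
NSD2: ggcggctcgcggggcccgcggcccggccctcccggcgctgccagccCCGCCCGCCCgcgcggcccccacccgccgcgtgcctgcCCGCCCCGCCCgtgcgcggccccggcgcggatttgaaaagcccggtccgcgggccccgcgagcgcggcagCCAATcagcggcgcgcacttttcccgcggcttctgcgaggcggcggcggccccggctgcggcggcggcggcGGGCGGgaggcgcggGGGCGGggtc
CREBBP: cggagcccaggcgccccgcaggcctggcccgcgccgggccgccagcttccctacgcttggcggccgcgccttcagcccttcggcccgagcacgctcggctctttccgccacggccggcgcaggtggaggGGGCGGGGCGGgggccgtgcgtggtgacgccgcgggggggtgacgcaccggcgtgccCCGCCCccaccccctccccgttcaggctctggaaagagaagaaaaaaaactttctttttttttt
EZH1: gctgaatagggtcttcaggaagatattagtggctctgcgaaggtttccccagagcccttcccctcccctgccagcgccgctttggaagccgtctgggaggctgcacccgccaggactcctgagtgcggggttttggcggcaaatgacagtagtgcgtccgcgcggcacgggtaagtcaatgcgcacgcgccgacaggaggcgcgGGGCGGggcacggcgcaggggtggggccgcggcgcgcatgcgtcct

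The NSD2 window held 50 CpG dinucleotides, 86% G+C, 6 GC boxes and 1 CCAAT. CREBBP had 31 CpG and 3 GC boxes, and EZH1 had 26 CpG and 1 GC box. A GC box stood in 35 of 54 promoters of the 37 members found in the table, beside 42.6% of all 35116 promoters, the ETS-type core in 8 of 54 beside 14.5%, the CCAAT box in 17 of 54 beside 32%, and the TATA box in 1 of 54 beside 10.7%. The median number of CpG was 25 over the members' promoters and 11 over all. These counts describe letters and not bound factors.

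Among the acetyltransferases above 0 in all libraries, those at least 2-fold lower in a line were CREBBP, KAT5 and KAT8. KAT8, which acetylates H4K16, was at 5.90 FPKM with DMSO and 1.64 with quisinostat in RT4, 6.49 and 2.85 in RT112, and 2.55 and 2.15 in SW780 cells. Its log2 ratios of -1.85, -1.19 and -0.24 shared a direction, with the SW780 difference small. KAT5, the catalytic subunit of the TIP60 complex, was at 20.0 and 8.33 FPKM in RT4, 13.5 and 16.5 in RT112, and 11.9 and 5.95 in SW780 cells, and its RT112 value was the higher with quisinostat (log2 ratio 0.29, and -0.17 after the G+C correction). KAT2B, which belongs to SAGA-type complexes, was the only member at least 2-fold higher in RT4 cells, at 4.23 and 10.0 FPKM (log2 ratio 1.24, and 0.93 after the G+C correction). It was nearly level elsewhere, at 4.11 and 4.05 in RT112 and 3.17 and 3.27 in SW780 cells.

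The most abundant members by mean FPKM were HAT1, KAT2A and the BAF subunit SMARCB1. HAT1, which acetylates newly made histone H4, was at 47.5 and 66.7 FPKM in RT4, 54.0 and 44.5 in RT112, and 65.4 and 63.3 in SW780 cells. KAT2A, the paralogue of KAT2B, was at 58.9 and 43.7, 32.2 and 44.2, and 38.4 and 36.2, in a locus shared with AC099811.2 and RAB5C. Neither moved one way in all lines as deposited. After the G+C correction HAT1 was slightly below 0 in all lines (-0.09, -0.11 and -0.23), and KAT2A was slightly above (0.08, 0.08 and 0.04). At the other end stood KAT6B, SETD1A and BRD1. KAT6B, of the MYST family, was at 0.28 FPKM with DMSO and listed at 0 with quisinostat in RT4, 3.43 and 0.78 in RT112, and 0.16 and 0.70 in SW780 cells. SETD1A, an H3K4 methyltransferase, was at 0.97 and 0.73, 1.34 and 1.93, and 1.37 and 1.82, and its RT4 ratio of -0.41 became 0.61 with the G+C correction, its RT112 ratio of 0.52 became -0.24. The remaining acetyltransferases, EP300 and KAT6A, had log2 ratios between -0.65 and 0.08.

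Of the bromodomain readers, BRD2 and BRD1 were at least 2-fold lower in RT4 cells. BRD2, a BET protein that binds acetylated histones, was at 54.9 and 25.8 FPKM in RT4, 30.8 and 26.5 in RT112, and 30.3 and 17.2 in SW780 cells. All 3 quisinostat values lay below all 3 DMSO values, and limma gave a log2 fold change of -0.68 (SE 0.23) with an adjusted p of 0.319. BRD3, its BET paralogue, was at 2.44 and 1.64 FPKM in RT4, 3.92 and 5.92 in RT112, and 2.19 and 2.35 in SW780 cells, and its groups overlapped. BRD1, a scaffold of MYST acetyltransferase complexes, was at 2.89 and 1.39 FPKM in RT4, 0.97 and 2.52 in RT112, and 2.04 and 0.61 in SW780 cells. It was thus more than 2-fold higher in 1 line and more than 2-fold lower in the other two. BRD7 and BRD8 had log2 ratios between -0.89 and 0.49.

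Paralogues can be compared within a library, where the scaling of the library drops out. Of 21 pairs, 9 had both genes above 0 in all libraries, and 4 of these moved the same way in all 3 lines. Only BRD2 over BRD3 moved by at least 0.5 in each line, with changes in its log2 ratio of -0.52 (RT4), -0.81 (RT112) and -0.92 (SW780). After the G+C correction the changes were -0.32, -0.95 and -0.86, so that the RT4 change no longer reached 0.5. EP300 over CREBBP moved by 0.62, 0.55 and 0.21, EZH1 over EZH2 by -0.34, -0.14 and -0.41, and SMARCC1 over SMARCC2 by -1.03, -0.41 and -0.19. After the G+C correction these changes were 0.33, 0.75 and 0.13 for EP300 over CREBBP and -0.07, -0.28 and -0.36 for EZH1 over EZH2. For SMARCC1 over SMARCC2 they were -1.38, -0.24 and -0.29. The CREBBP value includes TRAP1, and the SMARCC2 locus is shared with AC073896.4. With 3 lines the exact sign-flip permutation test cannot give a two-sided p below 0.25, so none of these pairs could pass it.

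**Figure D5:**
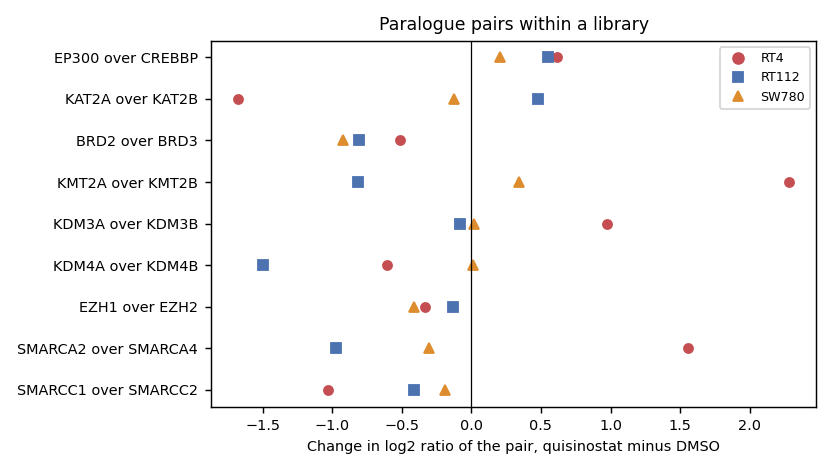
Change with quisinostat in the log2 ratio of 1 paralogue to the other (horizontal axis) for the 9 pairs measured in all libraries, with 1 point per cell line. BRD2 over BRD3 has its 3 points between -0.92 and -0.52, whereas KMT2A over KMT2B runs from -0.82 in RT112 to 2.28 in RT4 cells.

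The DNA methylation genes differed by line. UHRF1, which brings DNMT1 to newly copied DNA, was at 16.9 and 2.60 FPKM in RT4, 11.7 and 14.6 in RT112, and 7.90 and 3.50 in SW780 cells. Its RT4 log2 ratio of -2.70 was the lowest of any member above 0 in all libraries. DNMT1, the maintenance methyltransferase, was at 35.8 and 15.4 FPKM in RT4, 30.2 and 27.4 in RT112, and 20.3 and 11.1 in SW780 cells, with ratios of -1.22, -0.14 and -0.88. DNMT3B, a methyltransferase for unmethylated sites, was at 1.75 and 2.30 in RT4, 1.31 and 2.38 in RT112, and 3.25 and 1.35 in SW780 cells, lower in SW780 cells alone.

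Among H3K4 and H3K9 methyltransferases, KMT2B and EHMT2 were at least 2-fold lower in RT4 cells. KMT2B, a close relative of KMT2A, was at 5.88 and 1.15 FPKM in RT4, 1.98 and 3.004 in RT112, and 4.10 and 2.17 in SW780 cells. EHMT2, the G9a enzyme, was at 20.2 and 8.25, 6.13 and 9.11, and 9.68 and 5.03. Both were higher with quisinostat in RT112 cells and lower in the other two lines as deposited. The RT112 direction turned with the G+C correction, from 0.60 to -0.25 for KMT2B and from 0.57 to -0.07 for EHMT2, and the RT4 ratio of EHMT2 went from -1.29 to -0.42. KMT2A had log2 ratios of -0.07, -0.22 and -0.57.

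No PRC2 subunit passed 2-fold in any line. EZH2, EED and SUZ12, which form the core of the complex, had log2 ratios between -0.56 and 0.13. All 4 PRC2 genes were below 0 in RT112 and in SW780 cells, beside 46.4% and 47.6% of all loci. In RT4 cells 2 of 4 were below 0, beside 46.5%. Among demethylases, KDM4B, which acts on H3K9, was at 1.12 and 1.54 FPKM in RT4, 1.68 and 4.06 in RT112, and 1.29 and 1.15 in SW780 cells, and only its RT112 ratio of 1.27 passed 2-fold. With the G+C correction that ratio was 0.60, and its RT4 ratio of 0.46 became 1.35, past 2-fold. KDM2A, KDM3A, KDM4A, KDM5B and KDM5C had ratios between -0.62 and 0.33.

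In the BAF complex, 4 of 7 subunits measured were at least 2-fold lower in RT4 cells, beside 14.1% of all loci. After the G+C correction 2 were (SMARCB1 and SMARCC1), beside 8.16%. SMARCB1, a core subunit, was at 61.2 FPKM with DMSO and 14.1 with quisinostat in RT4, 40.9 and 43.2 in RT112, and 31.6 and 16.6 in SW780 cells. SMARCA4, 1 of its ATPases, was at 17.1 and 6.45, 9.96 and 12.2, and 3.79 and 2.88 in that order. ARID1A, a subunit often mutated in bladder cancer, was at 8.56 and 3.66, 9.88 and 12.8, and 11.8 and 5.81. These 3 subunits were lower in RT4 and SW780 cells and higher in RT112 cells as deposited. Their RT112 ratios went with the G+C correction from 0.08 to -0.46 (SMARCB1), from 0.30 to -0.39 (SMARCA4) and from 0.38 to 0.0024 (ARID1A), so that the RT112 direction turned for SMARCB1 and SMARCA4. SMARCA2, the alternative ATPase, had ratios of 0.14, -0.68 and -0.71. SMARCC2 and SMARCE1 lay between -0.22 and 0.09.

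Levels were also compared between lines. The members with the widest and the narrowest range with DMSO among the 41, from 1 library per line, are given here. With DMSO, SMARCA4 was at 17.1, 9.96 and 3.79 FPKM in RT4, RT112 and SW780 cells, a 4.51-fold range, and KDM5B at 13.8, 13.5 and 12.6, a 1.10-fold range. Both SW780 libraries lay below the other 4 for 7 of 41 members (KAT2B, KMT2A, KDM3A, SETD2, SMARCA2, SMARCA4 and SMARCE1), beside 10.4% of all loci, and above them for 2, beside 13.5%. Both RT112 libraries lay below for 6 members, beside 13.3%, and above for 3 of the 41, beside 10.4%. Both RT4 libraries lay above for 4 (KAT2B, KMT2A, KDM2A and KDM4A), beside 12.1%, and below for 1, beside 14.4%. The limma F-test of cell line used the DMSO and the quisinostat library of each line. The F-test called 5.96% of all loci and 0 of 41 members at an adjusted p of 0.05. At an unadjusted p of 0.05 it gave 8 of 41 members, beside 30.8% of all loci, and the lowest adjusted p among members was 0.077 (KDM4A).

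Further chromatin genes came from lists of related complexes. Of 162 listed, 120 had a row, 10 were lower (beside 4.99% of all loci) and 3 higher (beside 11.4%) past 0.3 in all 3 lines, and their median log2 ratios were -0.29, -0.08 and -0.22. Only SMARCD3, a BAF subunit of muscle and heart, was past 2-fold in the same direction in all lines. SMARCD3 was at 0.059 and 7.63 FPKM in RT4, 0.12 and 1.52 in RT112, and 0.44 and 2.61 in SW780 cells with DMSO and quisinostat, so that each quisinostat value lay above all 3 DMSO values.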

How the data were processed

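RNA of 6 libraries, 1 per cell line and treatment, was prepared by the authors as stranded poly(A) libraries and sequenced on a NovaSeq, then processed with HISAT2, StringTie and Ballgown. The submitters' processing notes name CASAVA 1.8.2, Trimmomatic 0.36, HISAT2 2.2.1, SAMtools 1.15.1, StringTie 2.2.1 and GRCh38. The deposited values are FPKM, computed by the authors. Neither the gene annotation's release nor how rows were selected is given in the sources used here. Read depth is unknown, so no counting interval was computed. Groups came from sample titles, since 1 characteristic of the SW780 quisinostat library spells the line differently. All columns of values were used.

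The members and gene lists were chosen with earlier results of these data known. Rows of a locus held identical values and were used once, and log2 ratios had no pseudocount and needed values above 0 in all 6 libraries. limma 3.58.1 (R 4.3.3) took log2(FPKM + 1) of loci averaging at least 1 FPKM, with a mean-variance trend, Benjamini-Hochberg adjustment and cell line as a block (or treatment, for the F-test). A fold change on this scale understates low genes. In the treatment fit the pairs share a cell line, and its p-values measure how the treatment difference varies between lines. In the F-test the DMSO and the quisinostat library of a line stood in as its replicates. Its p-values rest on that same variation, and no line had a biological replicate. The treatment fit was also run on simulated data (9430 loci, 200 changed by 2 on the log2 scale, noise SD 0.3). It recovered 200 with 3 false calls. Recovery of changes as small as the members' limma fold changes was not tested. G+C content came from GENCODE 29, with 8407 loci matched (92.3%), and the lowess span was 0.3. Promoters came from RefSeq (37 members matched). Members past 0.3 in all lines, members past 2-fold in any, the BRD2 and BRD3 pair and the 3 highest and 3 lowest members by mean FPKM were given in every library, and other members by ranges. Python 3.11.15 was used with pandas, SciPy and statsmodels.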

Additional observations from a re-analysis of the deposited data

Results flagged for a closer look

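BRD1 was more than 2-fold lower in RT4 (-1.05 on the log2 scale) and SW780 cells (-1.75) and more than 2-fold higher in RT112 cells (1.37). KAT6B had a log2 ratio of -2.14 in RT112 and 2.14 in SW780 cells and was listed at 0 in the RT4 quisinostat library. Both are flagged because the lines moved in opposite directions past 2-fold. With 1 library per line and treatment the difference was not tested, and both genes were among the 3 members with the lowest mean FPKM.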

How the results depend on the processing

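The members' medians stayed below 0 in every line under all alternatives run. No ratio past 2-fold turned its sign, and none of the 5 members lower in all lines did. The G+C correction turned the sign of smaller ratios for 6 members (RT4), 11 (RT112) and 3 (SW780). KMT2B, EHMT2, SMARCA4 and SMARCB1 in RT112 were among them. Sizes held less well than signs. Of the ratios past 2-fold, 11 fell below 2-fold with the G+C correction, and 12 stayed. With a pseudocount of 1, 10 fell below and 13 stayed. The weakest ratio came short of the 0.3 limit in some alternatives for EZH1 (-0.26), KDM3B (-0.2997) and SMARCC1 (-0.25). The count lower in all 3 lines (5 of 41) became 3 with a pseudocount of 1 and 3 without loci of several gene names (NSD2 and CREBBP are such loci). With the G+C correction it was 8, beside 7.73% of loci. A higher limit can only lower the count, and it was 1 at 0.5 and 0 at 1. Leaving out a line can only raise the count. It was then 16 without RT112 (beside 17.9% of all loci), 9 without RT4 (beside 9.49%) and 6 without SW780 (beside 8.18%). The count higher (0 of 41) was 0 to 2 when 1 line was left out (1 without RT4, 2 without SW780). At 2-fold, a pseudocount of 0.1 gave 1 higher in SW780, and a pseudocount of 1 gave 1 lower and 0 higher in RT112 and 0 lower in SW780. At a mean FPKM of at least 5 there were 0 higher in RT4 (beside 13.4% of loci) and 2 lower in SW780 (beside 4.15%). In RT112, 1 was lower (beside 1.52%) and 0 were higher (beside 7.2%). The G+C correction left 6 lower in RT4 (beside 8.16%) and 1 higher in RT112 (beside 9.04%). Without loci of several names 1 was lower in RT112. The other counts here stand without a share of all loci. Of the counts and medians, 113 values were classed as the same, within a tolerance, and 20 as moved. Values classed as the same could still differ. The 14 members 2-fold lower in RT4 became 12 with a pseudocount of 1 and 15 with a pseudocount of 0.1. Keeping loci of at least 1 FPKM on average, or summing all loci of a gene name, changed none of these counts and medians. Without the cell line block limma called 0 members, as in all its other alternatives, and NSD2's adjusted p ranged from 0.162 to 0.973.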

Other observations

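NSD2 lies near FGFR3 and TACC3 on chromosome 4. Its direct neighbours in GENCODE 29 did not share its direction in RT112 cells, where LETM1 had a log2 ratio of 0.03 and NELFA 1.15, beside -1.03 for NSD2. In RT4 and SW780 cells LETM1 had -0.92 and -0.27, and NELFA had -1.89 and -2.14. NELFA was at 4.16 FPKM or below in every library.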
